A study of Mus musculus with 36 samples.

Results

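Genes that mature astrocytes express at rest were followed across the brain of mice given histone deacetylase (HDAC) inhibitors. These 8 genes were taken by symbol, of 30854 symbols on the array, as Aqp4, Slc1a2, Slc1a3, Gja1, Gjb6, Aldoc, Aldh1l1 and Fgfr3. They are read by 15 of the 45281 probes. The rule uses the symbol alone and no measured value, but the 8 genes were chosen with earlier results of these data known.

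Astrocytes take up the glutamate and potassium that neurons release, supply neurons with metabolic fuel, and join one another through gap junctions into wide networks. Their end feet cover the brain's vessels and carry water channels. The levels of these genes are known to differ between brain regions and to shift when astrocytes become reactive after injury or inflammation, and HDACs are enzymes that remove acetyl groups from histones and so bear on how readily genes are transcribed.

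Adult male mice, C57BL/6J by the labels and 11 weeks old by the study's methods, received 1 intraperitoneal injection a day for 10 days and were killed 1 h after the last. The 4 treatments were vehicle (DMSO, PEG-400 and saline, given at 7.5 mL/kg), Cpd-60, an inhibitor of HDAC1 and HDAC2, at 45 mg/kg (7.5 mL/kg), SAHA, an inhibitor of class I and class II HDACs, at 25 mg/kg (5 mL/kg), and CI-994, an inhibitor of class I HDACs, at 10 mg/kg (5 mL/kg). From 6 mice a treatment the hippocampus (HIP), the medial prefrontal cortex (PFC) and the nucleus accumbens (NAc) were dissected, and RNA of 2 mice was pooled for each Illumina MouseWG-6 array, so that each of the 12 groups of treatment and region held 3 pools and, by the titles, the 36 arrays came from the same 12 pairs of mice in all 3 regions. The pool that the titles name as mice 3 and 4 under Cpd-60, called pool 2 here, carries the numbers 1 and 2 in a second label. If that label is right, Cpd-60 had 2 pools of different mice in each region and not the 3 counted below. No vehicle group was given the 5 mL/kg volume, so SAHA and CI-994 differ from vehicle in volume too.

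Between 31.9% and 43.3% of probes were detected on an array (detection p at most 0.01), arrays of the same group correlated at 0.970 to 0.994, and no pair of arrays was identical. Markers matched the dissected regions: 9 of 9 striatal marker probes were higher in the NAc than in the PFC under vehicle, 6 of 7 hippocampal ones were higher in the HIP, and 6 of 7 cortical ones were lower in the NAc than in the PFC. Each region was run on 2 BeadChips of its own, so a region and its BeadChips cannot be told apart except by the spread between the 2. In these dissected tissues, fewer astrocytes and less RNA per astrocyte cannot be told apart.

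For each gene the brightest of its probes is reported unless another is named, as log2 of the intensity after quantile normalization over all 36 arrays. These 8 probes were detected on 36 of 36 arrays. Slc1a2 had a second probe detected on all 36 arrays, Fgfr3 a second on 30, and Aldoc a second on 17. The other 4 probes, for Slc1a2, Aqp4 and Aldh1l1, were detected on 7 arrays or fewer, and those for Aqp4 and Aldh1l1 passed the detection filter in no region. Brightness is not compared between genes, because probes differ in how well they bind.

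Under vehicle, the genes did not follow a single order of regions. At an adjusted p under 0.05 (limma, Benjamini-Hochberg over all 22606 probes tested), 4 of the 8 differed between HIP and PFC, Aqp4 and Gja1 being higher in the HIP and Aldh1l1 and Fgfr3 higher in the PFC, beside 27.3% of all probes (13.4% higher and 13.9% lower in the HIP). Aqp4, Slc1a2, Gjb6 and Aldh1l1, 4 of 8, were lower in the NAc than in the PFC and none was higher, where 20.8% of all probes differed, 9.59% higher and 11.2% lower. Aqp4, Slc1a2, Gja1 and Gjb6, 4 of 8, were higher in the HIP than in the NAc and none was lower, where 17.9% of all probes differed, 8.27% higher and 9.6% lower. The pools of the 2 regions did not overlap for 5 of the 8 genes between HIP and PFC (46.1% of all probes), 4 of 8 between NAc and PFC (36.6%) and 4 of 8 between HIP and NAc (34.6%). The median difference over the 8 genes was 0.08 for HIP minus PFC, -0.30 for NAc minus PFC and 0.32 for HIP minus NAc on the log2 scale, against -0.03, -0.00 and -0.00 over all probes tested.

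**Figure D1:**
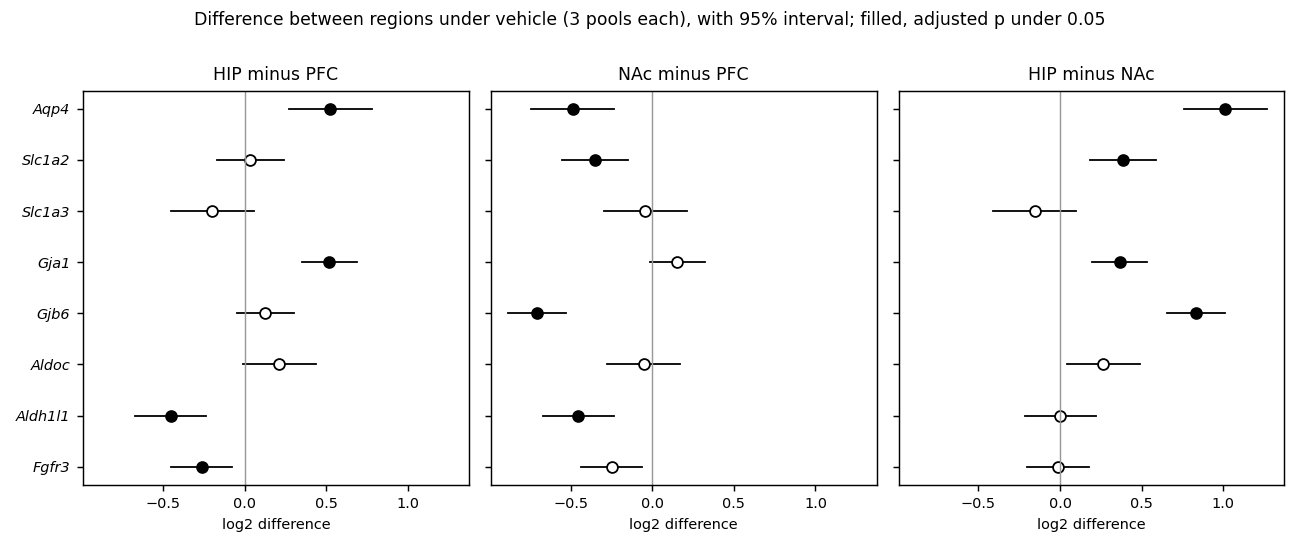
Difference in log2 intensity between regions under vehicle for the 8 genes, 1 panel per pair of regions, with points for the limma estimate from 3 pools a region and lines for its 95% interval. Filled points passed an adjusted p of 0.05: Aqp4 and Gjb6 lie farthest right in HIP minus NAc, at 1.01 and 0.83, while Slc1a3 has an interval across 0 in all 3 panels.

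Aqp4, the water channel of astrocyte end feet, had the widest range between regions. In vehicle pools 1, 2 and 3 it read 9.38, 9.21 and 9.12 (PFC), 8.73, 8.86 and 8.67 (NAc) and 9.93, 9.86 and 9.50 (HIP). The 3 regions did not overlap, in the order HIP, PFC, NAc. The HIP stood 1.01 above the NAc on the log2 scale (SE 0.11, adjusted p = 0.0002 by limma), a 2.02-fold difference. It stood 0.53 above the PFC (adjusted p = 0.0076 by limma), and the NAc stood 0.49 below the PFC (adjusted p = 0.013 by limma). The last call was lost without vehicle PFC pool 1 (adjusted p = 0.061). Among the 12 pools of all treatments, the HIP was above both other regions in 12 of 12, and the order of group means was HIP, PFC, NAc under each drug as well.

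Slc1a2 and Slc1a3 encode the glutamate transporters that clear the synaptic cleft, Slc1a2 carrying most of the uptake in the adult forebrain. The vehicle levels of Slc1a2 were 9.54, 9.37 and 9.38 (PFC), 9.001, 9.27 and 8.97 (NAc) and 9.39, 9.47 and 9.55 (HIP). The NAc pools lay below all pools of the other regions, which overlapped each other. The NAc was 0.35 below the PFC (SE 0.09, adjusted p = 0.022 by limma) and 0.39 below the HIP (adjusted p = 0.015 by limma). NAc was the lowest of the 3 regions in 12 of 12 pools across treatments. Both calls lay close to the threshold: the difference from the PFC had an adjusted p of 0.066 without vehicle NAc pool 1 and of 0.091 without vehicle PFC pool 1, and that from the HIP an adjusted p of 0.058 without NAc pool 1, 0.056 without HIP pool 2 and 0.059 without HIP pool 3. The second detected probe of Slc1a2 gave -0.31 for NAc minus PFC and 0.43 for HIP minus NAc, both with an adjusted p under 0.05 (0.041 and 0.010 by limma). One of its dim probes, detected on 7 arrays, differed between HIP and PFC (0.21, adjusted p = 0.040 by limma), where the brightest probe gave 0.04.

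Slc1a3 gave no call between regions. Its vehicle levels were 12.30, 12.21 and 12.48 (PFC), 12.45, 12.33 and 12.09 (NAc) and 12.03, 12.05 and 12.32 (HIP). All 3 regions overlapped. The 95% interval of HIP minus PFC ran from -0.45 to 0.06. The order of the group means, PFC then NAc then HIP under vehicle, was not the order under any of the drugs.

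Gja1 and Gjb6 encode the connexins from which astrocytes build their gap junctions, and the regions were ordered differently for each. Vehicle pools had Gja1 at 10.93, 10.96 and 11.14 (PFC), 11.22, 11.16 and 11.11 (NAc) and 11.62, 11.45 and 11.52 (HIP). The HIP pools were above all others, and those of the PFC and NAc overlapped. The HIP was 0.52 above the PFC (SE 0.08, adjusted p = 0.0011 by limma), or 1.43-fold, and 0.37 above the NAc (adjusted p = 0.0074 by limma). The NAc minus PFC difference of 0.15 was not called (95% interval -0.01 to 0.32). The HIP was above each of the other regions in 12 of 12 pools across treatments.

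Gjb6 stood at 9.73, 9.68 and 9.91 (PFC), 9.13, 9.07 and 9.003 (NAc) and 9.90, 9.80 and 10.00 (HIP) in the vehicle pools. The NAc pools lay apart below the rest, while PFC and HIP overlapped. The NAc was 0.71 below the PFC (SE 0.08, adjusted p = 0.00017 by limma) and 0.83 below the HIP (adjusted p = 5.2e-05 by limma), differences of 1.63-fold and 1.78-fold. Across treatments the NAc was below the HIP in 12 of 12 pools and above the PFC in 1 of 12.

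Aldoc, the brain isoform of the glycolytic enzyme aldolase, and Aldh1l1, a folate enzyme much used to mark astrocytes, gave different pictures. The vehicle pools had Aldoc at 12.28, 12.26 and 12.15 (PFC), 12.04, 12.12 and 12.37 (NAc) and 12.59, 12.30 and 12.43 (HIP). The HIP pools lay just above those of the PFC and overlapped those of the NAc. No difference was called with this probe (HIP minus PFC 0.21, adjusted p = 0.15 by limma), whereas the dimmer Aldoc probe, in the same direction, gave 0.36 for HIP minus PFC with an adjusted p of 0.010.

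Under vehicle, Aldh1l1 read 8.02, 8.15 and 7.97 (PFC), 7.76, 7.62 and 7.40 (NAc) and 7.68, 7.49 and 7.61 (HIP). The PFC pools lay above all others, and those of the NAc and HIP overlapped. It was 0.45 lower in the HIP (SE 0.10, adjusted p = 0.0076 by limma) and 0.45 lower in the NAc (adjusted p = 0.0087 by limma) than in the PFC, each 1.37-fold. The PFC was the highest of the regions in 12 of 12 pools across treatments.

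Fgfr3, a receptor for fibroblast growth factors found on astrocytes and their precursors, was likewise highest in the PFC. Its vehicle pools read 8.13, 8.03 and 7.83 (PFC), 7.87, 7.69 and 7.69 (NAc) and 7.71, 7.72 and 7.78 (HIP). The HIP pools lay below the PFC pools, and the NAc overlapped both. The HIP minus PFC difference of -0.26 (SE 0.08) had an adjusted p of 0.043 by limma, and of 0.052 with the pool of mice (the replicate number) as a block. It lost the call without any 1 vehicle pool of the HIP and without PFC pool 1 or 2, the adjusted p reaching 0.15. Its direction was the same in 12 of 12 pools across treatments, and the second Fgfr3 probe gave -0.25 (adjusted p = 0.068 by limma).

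Other cell types also differed between the regions. Under vehicle, 8 of 9 oligodendrocyte marker probes were higher in the HIP than in the PFC, with a median of 1.14, and 8 of 9 in the NAc, with a median of 0.65. Choroid plexus and ependymal markers were higher in the HIP than in the PFC for 4 of 6 probes. The part of these in the astrocyte differences was not tested.

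**Figure D2:**
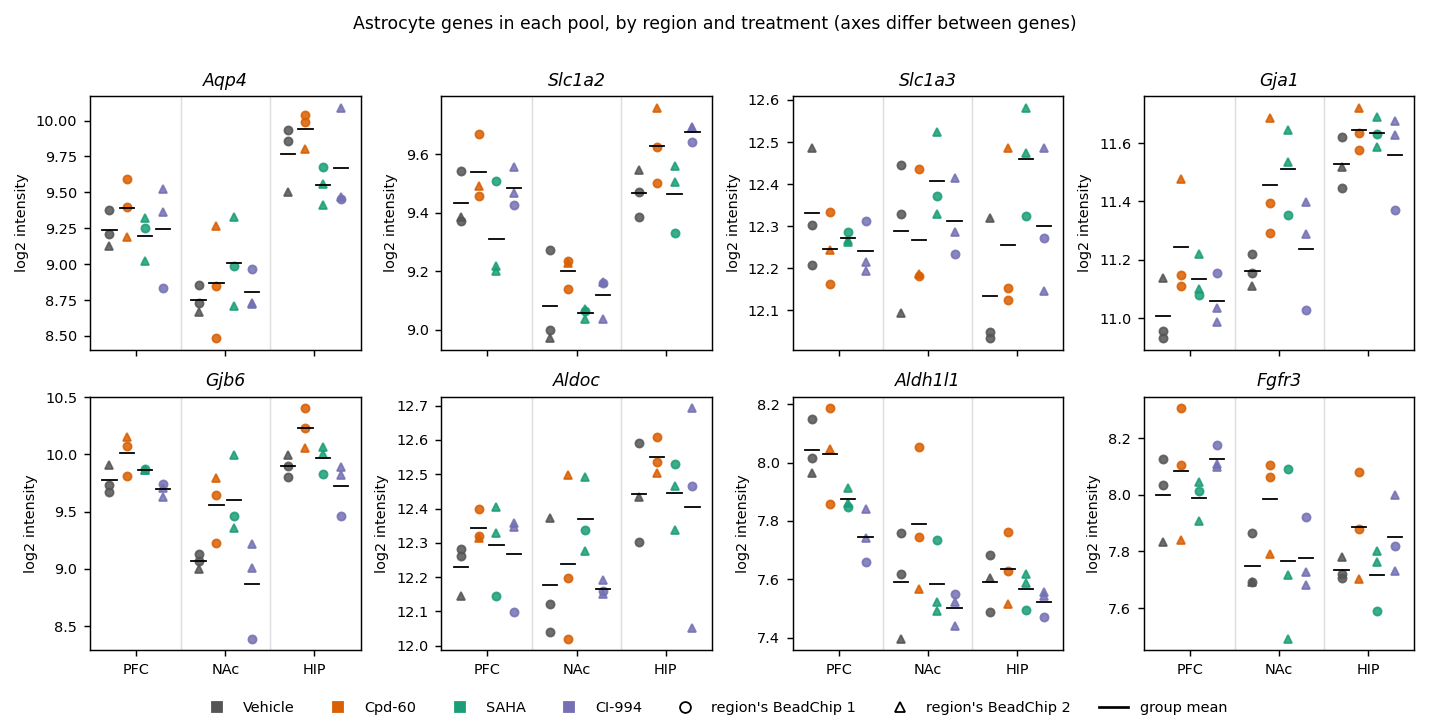
Level of each of the 8 genes (log2 normalized intensity, with a separate axis for each gene) in every pool, by region along the horizontal axis and by treatment in colour, with bars for group means and symbol shape for the region's BeadChip. Gja1 and Gjb6 in the NAc show the Cpd-60 and SAHA pools above the 3 vehicle pools, and Aldh1l1 in the PFC shows the CI-994 pools at 7.66 to 7.84 below the vehicle pools at 7.97 to 8.15.

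Each drug was then set against vehicle within each region, to ask whether the genes of resting astrocytes move under chronic HDAC inhibition. No gene of the 8 reached an adjusted p of 0.05 in any of the 9 comparisons (limma, Benjamini-Hochberg over 22156 to 23275 probes a region), and neither did any other probe, the share of all probes being 0% each time. The smallest adjusted p of the 72 tests was 0.51. Without adjustment, 9 of the 72 tests had a p under 0.05 in limma's fit, 8 of them higher and 1 lower under the drug. Among all probes, 1.99% to 9.37% had such a p, depending on the comparison. The connexin genes made up 18 of the 72 tests and 6 of the 9. The methods' test, a multiple comparison of the treatments within a region that was run here with CI-994 as a further treatment (the study ran it without CI-994), had a p under 0.05 in 1 of the 72, Aldh1l1 under CI-994 in the PFC. Over all probes its share was 1.71%, 1.58% and 1.53% for Cpd-60 in the PFC, NAc and HIP, 0.772%, 0.615% and 2.66% for SAHA, and 1.31%, 0.727% and 1.12% for CI-994. An exact permutation test of 3 pools against 3 cannot give a two-sided p under 0.1. All 3 drugs in a region were set against the same 3 vehicle pools, so their values are not independent of one another.

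Under Cpd-60, 2 of the 8 genes had an unadjusted p under 0.05 in the PFC, both higher, beside 5.19% of all probes (2.5% higher, 2.69% lower). In the NAc it was 1 of 8, also higher, beside 4.77% (2.07% higher, 2.7% lower). The HIP had 1 of 8, higher, beside 5.26% (2.37% higher, 2.89% lower). All 4 were Gja1 or Gjb6. Vehicle and Cpd-60 pools of the same number lay on the same BeadChip, pools 1 and 2 on the region's first and pool 3 on its second. A value within the second BeadChip is therefore 1 Cpd-60 array minus 1 vehicle array. Blocking on the BeadChip left the Cpd-60 differences as they were. When the BeadChip was blocked on, 2, 4 and 2 of 8 had such a p in the PFC, NAc and HIP, all higher under Cpd-60, beside 5.58%, 8.2% and 6.28% of all probes, Gjb6, Fgfr3 and Aldh1l1 being added in the NAc and Slc1a2 in the HIP. With the pool number as a block (the replicate block) they were 2, 3 and 2, beside 5.12%, 6.29% and 6.43%. None of these passed after adjustment (limma, Benjamini-Hochberg). The median change over the 8 genes was 0.11, 0.16 and 0.14 in the PFC, NAc and HIP, against -0.00 over all probes in each. The genes without such a p ranged from -0.09 to 0.16 (PFC), -0.02 to 0.49 (NAc) and 0.04 to 0.18 (HIP). Groups did not overlap for Aldoc alone of the 8 genes in the PFC, higher under Cpd-60, beside 9.68% of all probes.

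Gja1 in the PFC was at 11.15, 11.11 and 11.48 in the Cpd-60 pools, against 10.93, 10.96 and 11.14 in the vehicle pools. Cpd-60 pool 3 was the highest and vehicle pool 3, on the same BeadChip, the highest of its group, and the groups overlapped. The difference was 0.24 (SE 0.10, 95% interval 0.03 to 0.45), with an unadjusted p of 0.031 and an adjusted p of 0.92 by limma. It was 0.12 without Cpd-60 pool 3, with an unadjusted p of 0.17 in limma's fit, and 0.20 and 0.21 without vehicle pool 1 or 2.

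In the NAc, Gja1 was at 11.29, 11.40 and 11.68 under Cpd-60, against 11.22, 11.16 and 11.11 under vehicle. All 3 Cpd-60 pools lay above all 3 vehicle pools, as did 2 of the 8 genes here, where 9.38% of all probes had groups that did not overlap. The difference was 0.30 (95% interval 0.03 to 0.56, unadjusted p = 0.034, adjusted p = 1.00 by limma), and 0.16 within the first BeadChip against 0.57 within the second. Without Cpd-60 pool 3 it was 0.18. In the HIP, Gja1 was at 11.58, 11.64 and 11.72 against 11.62, 11.45 and 11.52, a difference of 0.12 (95% interval -0.06 to 0.30).

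Gjb6 under Cpd-60 was at 9.81, 10.07 and 10.15 in the PFC, against 9.73, 9.68 and 9.91 under vehicle, groups that overlapped. The difference was 0.24 (SE 0.09, 95% interval 0.05 to 0.43), with an unadjusted p of 0.017 and an adjusted p of 0.92 by limma, and its values without 1 pool ran from 0.17 (Cpd-60 pool 3) to 0.34 (vehicle pool 3). Without Cpd-60 pool 2, the pool of uncertain mice, it was 0.21, with an unadjusted p of 0.057 in limma's fit. In the HIP it was at 10.23, 10.40 and 10.06, all above the vehicle pools at 9.90, 9.80 and 10.00. Here the difference was 0.33 (95% interval 0.07 to 0.59, unadjusted p = 0.017, adjusted p = 0.91 by limma), where 12.2% of all probes had groups that did not overlap. The HIP difference was 0.47 within the first BeadChip (pools 1 and 2 of each group) and 0.06 within the second (pool 3 of each group). It was 0.24 without Cpd-60 pool 2 (unadjusted p of 0.079 in limma's fit).

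In the NAc, Gjb6 was at 9.23, 9.64 and 9.79 under Cpd-60, all above the vehicle pools at 9.13, 9.07 and 9.003. The mean difference was the widest of the Cpd-60 values, 0.49, but the Cpd-60 pools were spread over more than 0.5 (SD 0.29 against 0.06 under vehicle). Its 95% interval ran from -0.01 to 0.99, with an unadjusted p of 0.055 by limma, adjusted p = 1.00. With the BeadChip as a block the unadjusted p was 0.025 (limma, adjusted p = 0.56), and the difference was 0.34 within the first BeadChip and 0.79 within the second.

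Under SAHA, 0 of the 8 genes had an unadjusted p under 0.05 in the PFC (limma, adjusted p = 1.00 at the lowest), beside 2.25% of all probes (1.21% higher, 1.05% lower). There were 2 of 8 in the NAc, both higher, beside 2.05% (0.826% higher, 1.23% lower). The HIP had 1 of 8, higher, beside 9.37% (4.04% higher, 5.33% lower). The median over the 8 genes was -0.02 (PFC), 0.15 (NAc) and -0.00 (HIP), against 0.00, -0.00 and -0.01 over all probes. The remaining genes lay between -0.17 and 0.12 (PFC), -0.02 and 0.26 (NAc), and -0.22 and 0.11 (HIP). In the PFC 1 of the 8, Aldh1l1, had groups that did not overlap, lower under SAHA, beside 8.68% of all probes.

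The NAc genes were again the connexins. Gja1 was at 11.35, 11.53 and 11.65 in the SAHA pools, all above the vehicle pools at 11.22, 11.16 and 11.11. The difference was 0.35 (SE 0.12, 95% interval 0.08 to 0.62), with an unadjusted p of 0.016 and an adjusted p of 1.00 by limma. Gjb6 was at 9.46, 9.36 and 9.99, all above the vehicle pools at 9.13, 9.07 and 9.003, with a difference of 0.54 (95% interval 0.04 to 1.04, unadjusted p = 0.038, adjusted p = 1.00 by limma). These were the 2 of 8 genes whose groups did not overlap, beside 7.11% of all probes. SAHA pool 3 carried the highest level of both genes, and without it the differences were 0.28 and 0.34, neither with an unadjusted p under 0.05. SAHA and CI-994 each had pool 1 on a region's first BeadChip and pools 2 and 3 on its second. They were thus not balanced with vehicle over the BeadChips. With the BeadChip as a block the SAHA differences in the NAc were 0.28 for Gja1 and 0.44 for Gjb6. In the PFC the SAHA values were within 0.13 of vehicle for Gja1 (0.12, 95% interval -0.09 to 0.34) and Gjb6 (0.09, 95% interval -0.10 to 0.28). In the HIP they were 0.11 (95% interval -0.07 to 0.29) and 0.07 (95% interval -0.19 to 0.33).

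Striatal neuron markers also differed between these NAc pools. Of the 9 striatal marker probes tested, 8 were lower under SAHA than under vehicle in the NAc, with a median of -0.27, and 1, Pde10a, had an unadjusted p under 0.05. The mean log2 level over the 9 probes was 10.18, 10.41 and 9.97 in SAHA pools 1, 2 and 3, against 10.29, 10.43 and 10.59 under vehicle. It was 10.67, 10.39 and 10.26 under Cpd-60, where the median change was -0.02, and 10.50, 10.47 and 10.16 under CI-994, where it was -0.12. Summed linear intensities of the list were 14274 to 21808 under SAHA, 17052 to 24774 under Cpd-60 and 20065 to 21819 under vehicle. In each of the 4 treatments, the NAc pool with the highest Gja1 and Gjb6 had the lowest striatal marker level of its group.

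Markers of the choroid plexus, which lies in the ventricles, and of the ependyma, which lines them, were also higher in some of these pools. The summed intensity of their 6 probes was 637 to 733 under vehicle, 724 to 1668 under Cpd-60, 739 to 1218 under SAHA and 664 to 853 under CI-994. Of the 4 that were tested in the NAc, Kl and Kcne2 had an unadjusted p under 0.05 under Cpd-60 and none had under SAHA or CI-994, and Ttr, the main secreted protein of the choroid plexus, stood 1.18 above vehicle under Cpd-60 and 1.02 above under SAHA (SE 0.60). The arrays themselves also differed, with 34.7%, 36.7% and 41.0% of probes detected in the vehicle NAc pools against 40.0%, 38.1% and 41.2% under SAHA and 31.9%, 35.6% and 43.3% under Cpd-60. The part of any of these in the NAc values of Gja1 and Gjb6 was not tested.

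**Figure D3:**
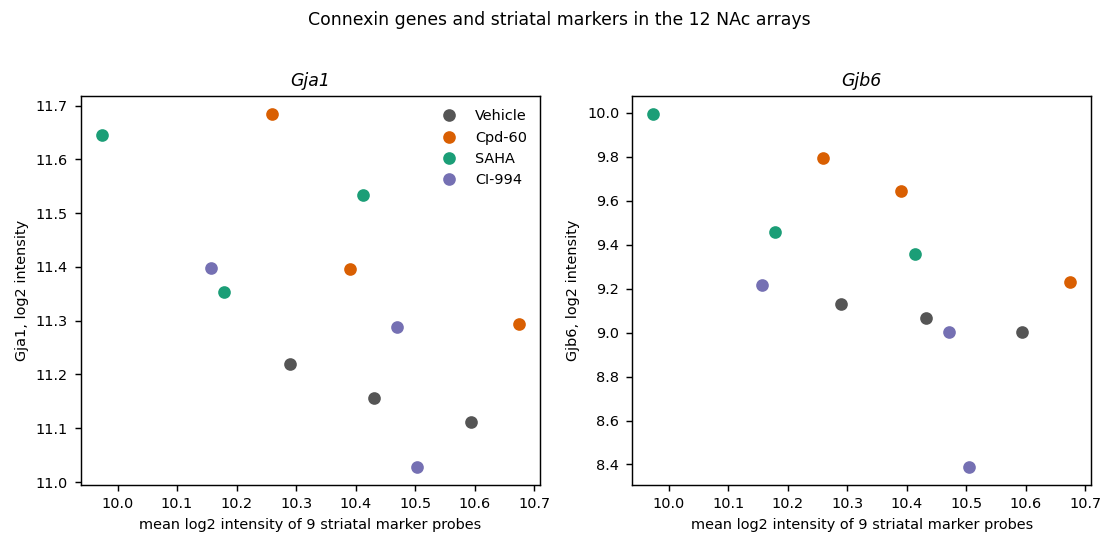
Level of Gja1 (left) and Gjb6 (right), as log2 intensity, against the mean log2 level of 9 striatal marker probes in the 12 NAc arrays, with 1 point per pool coloured by treatment. SAHA pool 3 lies at 9.97 on the horizontal axis and has the highest Gjb6 level (9.99). Cpd-60 pool 1 lies at 10.67.

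The SAHA gene in the HIP was Slc1a3. It was at 12.32, 12.58 and 12.47 in the SAHA pools, against 12.03, 12.05 and 12.32 under vehicle, so the lowest SAHA pool and the highest vehicle pool nearly met without crossing. The difference was 0.33 (SE 0.12, 95% interval 0.06 to 0.59), or 1.25-fold, with an unadjusted p of 0.019 and an adjusted p of 0.51 by limma. In this comparison 19.3% of all probes had groups that did not overlap. With the BeadChip as a block the Slc1a3 difference was 0.25. Arrays of the SAHA HIP group detected 34.3%, 32.1% and 32.3% of probes, against 39.7%, 39.7% and 38.0% under vehicle, and 4 of 8 oligodendrocyte marker probes were lower at an unadjusted p under 0.05, with a median of -0.25 over the list. The part of either in the Slc1a3 value was not tested. The same gene under SAHA gave -0.06 in the PFC and 0.12 in the NAc.

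Under CI-994, 1 of the 8 genes had an unadjusted p under 0.05 in the PFC, lower, beside 3.98% of all probes (2.21% higher, 1.77% lower). In the NAc it was 0 of 8 (limma, adjusted p = 1.00 at the lowest), beside 1.99% (0.822% higher, 1.17% lower), and 0 of 8 had groups that did not overlap, beside 7.61%. The HIP had 1 of 8, higher, beside 3.24% (1.74% higher, 1.5% lower). Medians over the 8 genes were 0.02 (PFC), 0.02 (NAc) and -0.00 (HIP), against -0.00, 0.00 and 0.00 over all probes. The remaining genes lay between -0.09 and 0.13, -0.20 and 0.08, and -0.17 and 0.17.

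Aldh1l1 in the PFC had the smallest unadjusted p of the 72 tests. It was at 7.66, 7.84 and 7.74 in the CI-994 pools, all below the vehicle pools at 8.02, 8.15 and 7.97, beside 10.7% of all probes with groups that did not overlap. The difference was -0.30 (SE 0.09, 95% interval -0.48 to -0.11), with an unadjusted p of 0.0042 and an adjusted p of 1.00 by limma. It was -0.43 within the first BeadChip (CI-994 pool 1, vehicle pools 1 and 2) and -0.18 within the second (CI-994 pools 2 and 3, vehicle pool 3). The difference had an unadjusted p under 0.05 without any 1 pool. SAHA pools were also below vehicle, at 7.85, 7.86 and 7.91 (difference -0.17, 95% interval -0.36 to 0.01), whereas Cpd-60 pools at 7.86, 8.19 and 8.05 spanned the vehicle range. In the other regions CI-994 gave -0.09 (NAc) and -0.07 (HIP) for Aldh1l1.

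Slc1a2 in the HIP was at 9.64, 9.69 and 9.69 in the CI-994 pools, all above the vehicle pools at 9.39, 9.47 and 9.55, beside 9.58% of all probes with groups that did not overlap. The difference was 0.21 (SE 0.08, 95% interval 0.03 to 0.38), with an unadjusted p of 0.023 and an adjusted p of 1.00 by limma. With the BeadChip as a block it was 0.16. The second detected probe of Slc1a2 did not show the rise, at -0.06. In the same comparison 7 of 8 oligodendrocyte marker probes were below vehicle (median -0.22), 1 with an unadjusted p under 0.05, and 6 of 6 choroid plexus and ependymal probes were below it, from -0.03 to -1.14, none with such a p. The part of these in the Slc1a2 value was not tested.

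The connexins gave 0.05 (PFC), 0.08 (NAc) and 0.03 (HIP) for Gja1 under CI-994, and -0.08, -0.20 and -0.17 for Gjb6 in the same order. With the BeadChip as a block these were 0.01, 0.01 and -0.00 for Gja1, and -0.10, -0.30 and -0.21 for Gjb6. Gjb6 in CI-994 NAc pool 1, at 8.39, was the lowest of all 36 arrays.

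**Figure D4:**
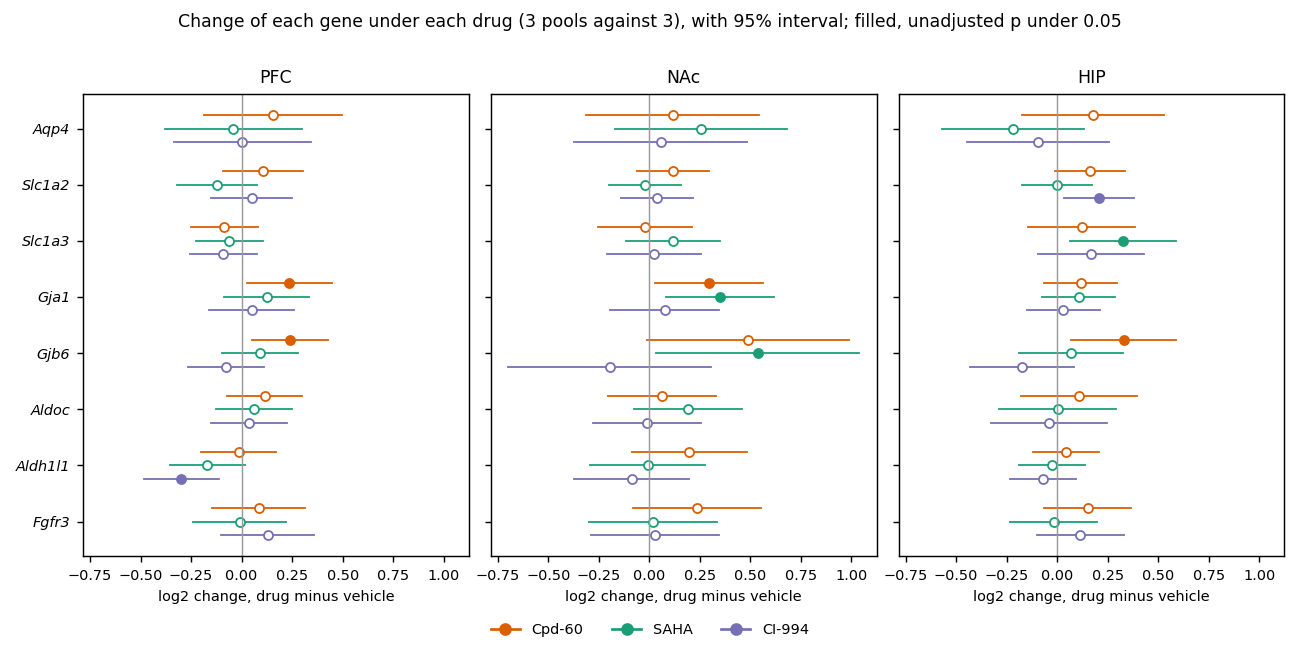
Change in log2 intensity of each gene under each drug against vehicle, 1 panel per region, with points for the limma estimate from 3 pools against 3 and lines for its 95% interval. Filled points had an unadjusted p under 0.05 and none passed after adjustment: 6 of the 9 filled points are Gja1 or Gjb6, under Cpd-60 and SAHA, and 1 of the 9, Aldh1l1 under CI-994 in the PFC, lies below 0.

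The 3 drugs were given at different doses and in different volumes, so their values stand side by side and the drugs were not compared with one another. In the NAc, for example, Gjb6 stood 0.49 above vehicle under 45 mg/kg Cpd-60, 0.54 above under 25 mg/kg SAHA and 0.20 below under 10 mg/kg CI-994, with standard errors of 0.23. Without a block, Aqp4, Aldoc and Fgfr3 had no unadjusted p under 0.05 under any drug. Aqp4 ranged from -0.22 to 0.26 over the 9 comparisons with standard errors of 0.16 to 0.19, Aldoc from -0.04 to 0.19, and Fgfr3 from -0.02 to 0.24.

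Whether a drug acted differently in the 3 regions was tested directly on all 36 arrays. No gene of the 8 had an unadjusted p under 0.05 in this test for any drug, beside 2.63%, 4.38% and 1.99% of all 26594 probes for Cpd-60, SAHA and CI-994, and 0% after adjustment. The nearest was Slc1a3 under SAHA (unadjusted p of 0.053 in limma's fit over all probes), where the HIP effect was 0.39 above that in the PFC and the NAc effect 0.18 above it. The SAHA effect on Gjb6 was 0.44 higher in the NAc than in the PFC, with the next smallest value of the 24 tests (unadjusted p of 0.10 in the same fit, adjusted p = 1.00 by limma). The values that passed in one region and not in another are therefore not shown to differ between regions.

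Within groups, the genes did not vary as a single block. Each array's deviation from the mean of its treatment and region was taken, which removes both effects, and over the 28 pairs of genes the correlation of these deviations on 36 arrays ran from -0.64 to 0.72 with a median of 0.06. The highest was between Gja1 and Gjb6 (Pearson r = 0.72, Spearman 0.66, and r = 0.70 without the 2 arrays with the most extreme Gja1). By region it was 0.86 in the NAc, 0.64 in the PFC and 0.53 in the HIP, on 12 arrays each, but the latter values were 0.28 and 0.04 without the 2 most extreme arrays. Aqp4 and Aldoc followed at 0.57, and Aldh1l1 and Fgfr3 had 0.41. Aldoc and Slc1a3 had -0.64 and Gja1 and Fgfr3 -0.60, so that members of the same set of astrocyte genes also ran opposite to each other. In the PFC, NAc and HIP, Aldoc and Slc1a3 had -0.43, -0.77 and -0.62, and Gja1 and Fgfr3 -0.78, -0.70 and -0.15. Aqp4 and Aldoc had 0.61, 0.51 and 0.65 there, but 0.08 on the 9 vehicle arrays. Without the 2 arrays most extreme in a pair's first gene, Aqp4 and Aldoc had 0.42 over all regions, and 0.26, 0.28 and 0.53 by region. Aldoc and Slc1a3 then had -0.57, and -0.37, -0.71 and -0.42 by region. Gja1 and Fgfr3 then had -0.50, and -0.44, -0.60 and -0.13 by region. On the 9 vehicle arrays Gja1 and Fgfr3 had -0.44, and 0.23 without the 2 most extreme. Arrays share BeadChips, pools of mice and the quantile scale, and the correlations are given as descriptions without a test.

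**Figure D5:**
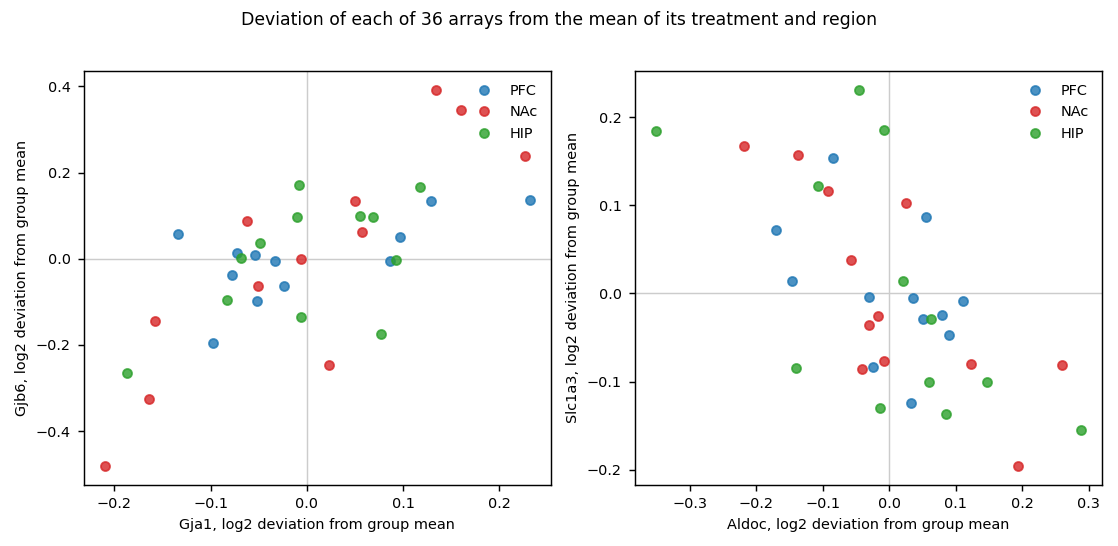
Deviation of each of the 36 arrays from the mean of its treatment and region, in log2 units, for Gjb6 against Gja1 (left) and Slc1a3 against Aldoc (right), with points coloured by region. Points slope upward on the left (r = 0.72) and downward on the right (r = -0.64).

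The summed deviations of the 8 genes, each standardised, were set beside the marker lists of other cells in the same way. They correlated at 0.65 with a further list of astrocyte genes (27 probes detected on all arrays), at 0.48 with genes of reactive astrocytes (3 probes) and at -0.56 with striatal region markers (4 probes). Neuron, oligodendrocyte, oligodendrocyte precursor, microglial, endothelial, cortical and hippocampal lists lay between -0.16 and 0.25.

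Because Gja1 and Gjb6 varied most closely together, the 250 bases upstream of each start site are shown, from RefSeq (GRCm38.p6), 5′ to 3′ on the strand of the gene. Gja1 lies on the plus strand, with this stretch at chr10:56377050-56377299, and Gjb6 on the minus strand, with this stretch at chr14:57133612-57133861. Capitals mark a match to the AP-1 motif TGANTCA.
Gja1: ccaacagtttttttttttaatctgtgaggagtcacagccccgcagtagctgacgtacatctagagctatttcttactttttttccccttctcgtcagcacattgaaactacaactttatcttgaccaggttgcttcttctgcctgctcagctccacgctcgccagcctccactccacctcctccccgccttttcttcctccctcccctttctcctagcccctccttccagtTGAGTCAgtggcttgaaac
Gjb6: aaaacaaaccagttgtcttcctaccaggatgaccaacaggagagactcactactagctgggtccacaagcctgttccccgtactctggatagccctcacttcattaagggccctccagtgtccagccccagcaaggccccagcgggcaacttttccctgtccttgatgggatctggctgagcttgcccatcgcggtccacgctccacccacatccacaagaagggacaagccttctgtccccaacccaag

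Each of 3 motifs was searched on both strands of these stretches: the AP-1 motif TGANTCA, the NFI half-site TTGGC and the GC box GGGCGG. The AP-1 letters occurred once for Gja1 and not for Gjb6, and in 6.75% of the 32851 promoters of the table over the same length. Neither stretch held TTGGC, found in 41.5% of promoters, or GGGCGG, found in 32.7%. These matches describe the letters only, and no binding was measured. Of the 8 genes 7 had an entry in the table, and for the other members the GC box occurred upstream of Slc1a3, Aldh1l1, Fgfr3 and Aldoc. The NFI half-site occurred upstream of Slc1a2 and Aldoc, and the AP-1 motif upstream of none of these other members. Aldoc and Fgfr3 each had more than 1 entry. Neither motif of Aldoc was in every Aldoc entry, while the GC box was in every Fgfr3 entry.

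A further list of 40 astrocyte genes places the 8 in their setting. Of these, 36 had a tested probe between regions under vehicle, and 12 differed between HIP and PFC (limma, adjusted p under 0.05), 11 of them higher in the HIP, beside the 27.3% of all probes given above. The widest were Id4, a transcriptional regulator (1.20, adjusted p = 0.016 by limma), and Pla2g7, a phospholipase that inactivates platelet-activating factor (1.13, adjusted p = 0.0030). Their probes were detected on 31 and 19 of the 36 arrays, with vehicle PFC means of 6.72 and 6.61. Next came Slc7a10, a transporter of small neutral amino acids (0.88, adjusted p = 0.0013). Slc7a11, the cystine-glutamate exchanger, was lower (-0.70, adjusted p = 0.0067). The smallest adjusted p was that of Lcat (0.65, adjusted p = 0.00021 by limma). Between NAc and PFC 10 differed, 4 higher and 6 lower, beside 20.8% of all probes, with Slc25a18, a mitochondrial glutamate carrier, at -0.96 (adjusted p = 0.0014 by limma) and Slc4a4, the sodium bicarbonate cotransporter, at 0.89 (adjusted p = 9.8e-05 by limma). Between HIP and NAc 10 differed, 9 of them higher in the HIP, beside 17.9% of all probes. The exception was Slc4a4, lower in the HIP (-0.65). Without vehicle PFC pool 2 the second of these counts was 6, and the last was 5 without vehicle HIP pool 2 and 6 without NAc pool 2.

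Under the drugs this list also had 0 calls after adjustment (limma, Benjamini-Hochberg). Under Cpd-60, 3 higher and 1 lower of 35 had an unadjusted p under 0.05 in the PFC, 2 higher of 36 in the NAc, and 2 higher and 2 lower of 36 in the HIP, where 5.19%, 4.77% and 5.26% of all probes did. Htra1, a secreted serine protease, and Lcat, which esterifies cholesterol on lipoproteins, were among them in each region. Htra1 stood 0.35, 0.40 and 0.52 above vehicle in the PFC, NAc and HIP (SE 0.11, 0.12 and 0.11), and Lcat 0.21, 0.34 and 0.22 (SE 0.09, 0.07 and 0.06). Over all tested genes of this list, the median Cpd-60 change was -0.02 (PFC), 0.06 (NAc) and 0.0008 (HIP). Genes above and below vehicle numbered 15 and 20 (PFC), 22 and 14 (NAc), and 18 and 18 (HIP). The medians of the 8 genes, 0.11, 0.16 and 0.14, were higher in each region. In the HIP under SAHA and CI-994, Lcat was at -0.18 each time. SAHA had none in the PFC and NAc and 1 in each direction of 36 in the HIP, beside 9.37% of all probes there. CI-994 had none in the PFC and NAc and 4 lower of 36 in the HIP, beside 3.24%.

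A list of 12 genes that reactive astrocytes raise had no adjusted call either (limma). The shares of all probes with an unadjusted p under 0.05 were 5.19%, 4.77% and 5.26% under Cpd-60 in the PFC, NAc and HIP. They were 2.25%, 2.05% and 9.37% under SAHA, and 3.98%, 1.99% and 3.24% under CI-994. At an unadjusted p under 0.05, Cpd-60 had 2 of 9 tested in the PFC, both higher, namely Lcn2, a secreted lipocalin (1.26, SE 0.52), and Vim, an intermediate filament (0.22). It had 1 of 8 in the NAc, Gfap, the intermediate filament of astrocytes, higher (0.77, SE 0.30), and 1 of 9 in the HIP, the small heat shock protein gene Hspb1, lower (-0.32). The values of Lcn2 in the NAc and HIP were 1.30 (SE 0.66) and 1.02 (SE 0.47), without such a p. Its probe was detected on 10 of the 36 arrays (detection p at most 0.01), and by the titles the regions came from the same mice. The summed intensity of the list in Cpd-60 pool 2 was 3338, 2739 and 4926 in the PFC, NAc and HIP. The other Cpd-60 pools reached at most 2218, 1633 and 4110. The part of pool 2 in the Lcn2 values was not tested. SAHA had 0 of 9 in the PFC, 1 of 8 in the NAc, Hspb1 (0.21), and 2 of 9 in the HIP, Gfap (-0.81) and Vim (-0.18), both lower. CI-994 had 1 of 9 in the PFC, Osmr, a cytokine receptor subunit, lower (-0.16), and none in the NAc and HIP.

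The 5 other genes whose pattern over all 36 arrays lay nearest the mean standardised level of the 8 were 4930544G21Rik (Pearson r = 0.86), Hsd11b1 (0.85), Sat2 (0.85), Rasgrf1 (0.84) and Slc8a1 (0.84), of 8571 genes detected on every array, whose median was -0.01. That likeness holds the region differences. For the deviations within groups the nearest were Rwdd2 (0.77), Lrig1 (0.75), LOC100046259 (0.73), Aard (0.72) and Slc8a1 (0.72), against a median of 0.00. Slc8a1, a sodium-calcium exchanger, was the single gene on both lists.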

How the data were processed

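RNA of 36 pools was measured on Illumina MouseWG-6 arrays. The authors deposited each probe's linear intensity, neither normalized nor background subtracted, with its detection p-value. By the study's methods the authors' own analysis used quantile normalization, a median baseline and a filter on presence in 3 of 3 replicates.

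Here, in R 4.3.3 with limma 3.58.1, intensities of all 36 arrays were quantile normalized together (floor 1) and log2 transformed. A probe was tested if its detection p was no higher than 0.2 on all 3 arrays of some group. Drugs were compared with vehicle within each region (12 arrays), regions under vehicle (9 arrays, without a block), and regional differences of a drug's effect on 36 arrays with the pool of mice as a random block, by limma's lmFit and eBayes with Benjamini-Hochberg adjustment over all probes tested, two-sided. Intervals are limma's 95% intervals. Array number and pooling limit the precision. Quantile normalization removes differences in overall signal between arrays, and dim probes understate fold changes because background is included.

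The 8 genes and all marker lists were chosen with earlier results of these data known, so no count over them is independent support. Full statistics are given for genes with an unadjusted p under 0.05 against vehicle or an adjusted p under 0.05 between regions, the others by range. The fits were checked on simulated data beforehand. RefSeq held 8 of the 8 symbols. All deposited columns were mapped to a sample by their labels. In the regions, pools are the same mice by the labels, and correlations between regions of the same mice's deviations from the group means had medians of -0.00 (vehicle), 0.12 (Cpd-60), -0.13 (SAHA) and -0.12 (CI-994). Between drug and vehicle, deviations of same-numbered pools correlated above 0.1 in all 3 Cpd-60 pairs of both PFC and NAc, where the number also gives the BeadChip. Alternatives were neqc (offset 16), quantile normalization within a region, detection p at most 0.01, no detection filter, the BeadChip and the pool as blocks, the methods' test, the 27 arrays without CI-994, and leaving out each pool. Values within each BeadChip were added after the data were seen.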

Additional observations from a re-analysis of the deposited data

How the results depend on the processing

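Under all alternatives run, no named difference changed sign and 0 of the 8 genes were called under any drug. Leaving out a pool gave 2 to 5 genes called between NAc and PFC under vehicle in place of 4, the lowest count being without vehicle PFC pool 1. The other region counts stayed within 1.5 times of 4. The pool of mice as a replicate block, which the labels support between regions, gave 3, 4 and 4 genes for HIP against PFC, NAc against PFC and HIP against NAc, Fgfr3 losing its call (adjusted p = 0.052 by limma). With the BeadChip as a random block the counts were 3, 3 and 4, without Fgfr3 and without Slc1a2 in the NAc against PFC (adjusted p = 0.065). With neqc they were 3, 3 and 3, without Fgfr3, without Slc1a2 in the NAc against PFC (adjusted p = 0.062) and without Gja1 in the HIP against NAc (adjusted p = 0.060). With 36 arrays and the pool as a random block they were 3, 3 and 4, without Fgfr3 and without Aqp4 in the NAc against PFC (adjusted p = 0.073). The share of all probes called between regions was not computed under these alternatives. Between drug and vehicle, same-numbered Cpd-60 and vehicle pools also shared a BeadChip, while SAHA and CI-994 pools 2 did not share that of vehicle pool 2. Same-numbered deviations had median correlations of 0.39, 0.05 and 0.02 for Cpd-60, SAHA and CI-994. The replicate block called 0 genes in each comparison. It moved the genes with an unadjusted p under 0.05 from 1 to 3 under Cpd-60 in the NAc and from 1 to 2 in the HIP. The share of all probes moved there as well, from 4.77% to 6.29% and from 5.26% to 6.43%. Under SAHA the genes went from 0 to 1 in the PFC and from 2 to 3 in the NAc, where the share of all probes with this block was not computed. Of the 9 drug values with an unadjusted p under 0.05, only Aldh1l1 under CI-994 in the PFC kept it in every alternative with a test (p 0.0018 to 0.037). The cause was not tested for any of these. With 3 pools a group, the other 8 each lost it without at least 1 single pool.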
